A study of Homo sapiens with 6 samples.

Results

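Collagen chain genes and the genes of the enzymes that process collagen were compared between PANC-1 cells with silenced ZDHHC20 and control cells. PANC-1 is an established human line of pancreatic cancer cells. The study asked what ZDHHC20, an enzyme that attaches palmitate to proteins, controls in these cells. RNA-seq was made from 3 libraries of cells carrying a control shRNA (shControl) and 3 of cells carrying an shRNA against ZDHHC20 (shZDHHC20). All 6 libraries came from total RNA by a directional kit. The labels give RPMI-1640 with 10% fetal bovine serum as the medium, and the study's methods give DMEM for its cell lines. The study used more than 1 shRNA against ZDHHC20 elsewhere, and the sources used here do not give which one these cells carried. The study speaks in general of biological replicates for its cell culture work, and nothing says of these libraries in particular that they came from separate cultures. P-values therefore measure only the spread between these libraries, which may be technical. Members were genes whose whole symbol is COL, a number, A and a number, and 16 genes of prolyl and lysyl hydroxylases, their partners, the chaperone SERPINH1 and lysyl oxidases. Of 60 such symbols listed by hand, 54 were among the 27394 genes of the table, and 51 of these, 35 chains and all 16 enzymes, averaged 1 or more across the 6 libraries and were tested among 22189 genes. Just inside this filter stood COL6A6 and COL20A1, with means of 2.16 and 2.33. Outside it stood COL22A1, COL28A1 and COL23A1, with means of 0.698, 0.638 and 0.504. COL1A2, COL6A5, COL8A1, COL9A1, COL19A1 and COL25A1 were not among the 27394 genes, so they have no value here.

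Collagens are secreted proteins in which chains wind around each other into a helix, and which build the fibrils, networks and filaments of the extracellular matrix. The chains are hydroxylated on proline and lysine in the endoplasmic reticulum, fold there with the help of a dedicated chaperone, and are cross-linked by lysyl oxidases after secretion. In pancreatic tumours most fibrillar collagen is laid down by fibroblasts, and carcinoma cells make basement membrane and other collagens as well.

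Promoter windows of the members whose values the results below turn on are shown here, to place the paired type IV genes beside each other and to give the sequence of members that moved. RefSeq on GRCh38.p14 gave windows of 250 bases before to 50 bases after a transcript start for 41 of the 51 members tested. Capitals mark motifs searched on both strands. The CCAAT box was searched by the letters of its name. The GC box was searched as GGGCGG, and the box named TATA was searched as TATAAA. The core of a heat shock element was searched as GAANNTTC. The head-to-head genes COL4A1 and COL4A2 share the first window, as COL4A4 and COL4A3 share the second.
COL4A1 and COL4A2, shared bases, chr13:110307108-110307333 (+ strand): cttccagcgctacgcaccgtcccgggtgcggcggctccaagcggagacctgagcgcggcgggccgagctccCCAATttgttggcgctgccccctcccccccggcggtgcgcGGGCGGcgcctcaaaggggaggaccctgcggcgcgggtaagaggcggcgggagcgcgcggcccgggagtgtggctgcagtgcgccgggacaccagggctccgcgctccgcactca
COL4A4 and COL4A3, shared bases, chr2:227164374-227164455 (+ strand): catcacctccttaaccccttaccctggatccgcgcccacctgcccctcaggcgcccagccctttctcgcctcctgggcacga
P4HB, chr17:81860486-81860785 (- strand): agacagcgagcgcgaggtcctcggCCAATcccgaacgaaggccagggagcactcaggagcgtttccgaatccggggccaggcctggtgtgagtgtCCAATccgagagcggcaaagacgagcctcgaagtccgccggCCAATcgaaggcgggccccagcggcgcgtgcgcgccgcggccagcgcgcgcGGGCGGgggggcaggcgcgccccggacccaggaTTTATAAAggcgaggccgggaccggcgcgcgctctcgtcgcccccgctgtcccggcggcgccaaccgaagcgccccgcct
COL6A2, chr21:46097862-46098161 (+ strand): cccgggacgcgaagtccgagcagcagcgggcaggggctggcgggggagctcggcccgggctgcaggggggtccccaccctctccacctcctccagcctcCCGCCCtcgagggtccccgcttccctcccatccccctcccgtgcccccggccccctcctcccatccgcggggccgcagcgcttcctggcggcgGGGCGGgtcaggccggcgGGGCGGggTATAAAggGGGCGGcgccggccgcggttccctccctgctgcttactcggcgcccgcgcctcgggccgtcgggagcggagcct
COL6A3, chr2:237414115-237414414 (- strand): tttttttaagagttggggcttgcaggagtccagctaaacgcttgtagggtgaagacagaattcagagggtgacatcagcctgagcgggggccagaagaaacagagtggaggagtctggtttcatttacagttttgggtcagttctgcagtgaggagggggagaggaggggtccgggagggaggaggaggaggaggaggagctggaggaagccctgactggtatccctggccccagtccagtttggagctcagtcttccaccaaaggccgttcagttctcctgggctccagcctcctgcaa
SERPINH1, chr11:75562003-75562302 (+ strand): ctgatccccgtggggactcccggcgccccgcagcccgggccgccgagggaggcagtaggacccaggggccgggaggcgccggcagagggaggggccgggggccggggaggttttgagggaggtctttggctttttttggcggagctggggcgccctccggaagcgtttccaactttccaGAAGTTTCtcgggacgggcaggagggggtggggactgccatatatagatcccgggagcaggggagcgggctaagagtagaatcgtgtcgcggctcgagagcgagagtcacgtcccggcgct

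The bases shared by COL4A1 and COL4A2 held 1 CCAAT box and 1 GC box, and those shared by COL4A4 and COL4A3 held none of the motifs searched. P4HB held 3 CCAAT boxes, 1 GC box and 2 overlapping TATA boxes on opposite strands. COL6A2 held 4 GC boxes and 1 TATA box, and COL6A3 held none of them. SERPINH1, a gene known to respond to heat shock, held 1 core of a heat shock element in this window. A GC box was in a window of 31 of the 41 matched members (75.6%), and in 45.0% of 35116 promoter windows, or 59.6% of the members' own 57 windows. A CCAAT box was in 29.8% of the members' windows and 34.6% of all, a TATA box in 17.5% and 11.5%, and the heat shock core in 10.5% and 6.77%. These matches describe the letters only.

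The values are normalized counts, that is, read counts per gene scaled to be comparable between libraries and not divided by gene length. ZDHHC20 itself was at 2001, 2033 and 1940.4 in shControl and 872, 779 and 893 in shZDHHC20, so that 42.6% of the control mean remained. In steps of their smallest value, the libraries summed to between 16575546 and 18441049 steps, each step standing for 1 read where whole reads were counted. shZDHHC20 replicate 2 stood apart: its log2 values differed from those of shZDHHC20 replicates 1 and 3 with an SD of 0.178 and 0.198, against 0.0722 between these, and mitochondrial genes took 4.01% of its values, against 5.28% to 5.52% in the other 5. Of 7 markers listed for ductal and PANC-1 cells, the keratins KRT8, KRT18 and KRT19 were at 5771 or more in every library, and KRT7 was at 63.6 to 122. The epithelial adhesion genes EPCAM and CDH1 rose, to 725% and 219% of their control means (adjusted p = 6.70e-07 and 6.62e-06), and the transcription factor SOX9 fell, to 79.6% (adjusted p = 0.00146). Their part in the collagen values was not tested. The 7 markers summed to 84720.2 to 86943 in shControl and 79244 to 80196 in shZDHHC20, and 4 markers of fibroblasts (PDGFRB, LUM, THY1 and ACTA2, of 9 listed, LUM being at 0 in shControl) summed to 26.1 to 33.3 in shControl and 12.2 to 27.9 in shZDHHC20.

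Between shZDHHC20 and shControl libraries, 23 of the 51 collagen chains and enzymes tested differed, 18 of them lower and 5 higher (limma, adjusted p under 0.05). Among all 22189 genes 11.5% were called, 6.84% as lower and 4.61% as higher, against 45.1%, 35.3% and 9.80% of the members. The genes that fell included the type VI chains COL6A1, COL6A2 and COL6A3, COL4A2 of the basement membrane, the lysyl hydroxylases PLOD1 and PLOD3, the prolyl 3-hydroxylase partner CRTAP and the collagen chaperone SERPINH1. Those that rose were COL5A2, COL11A1, COL4A4, COL21A1 and P4HB. The median log2 fold change was -0.10 over the members, -0.0036 over the chains and -0.26 over the enzymes, and 0.013 over all genes tested. Calls are more frequent at high values, so members were also set beside genes with a mean of at least 100, of which 21.7% were called; 21 of 31 such members were called, 17 lower and 4 higher, and 2 of the 20 below that level. No overlap between groups was seen for 27 members, 21 below and 6 above the controls, or 52.9% against 28.6% of all genes. Among genes with a mean of at least 100 this share was 42.6%, and 80.6% among members at that level. Bulk RNA cannot tell fewer cells of a type from less RNA per cell. The number of members called was 4 without a mean-variance trend in the fit, 14 without shControl replicate 1 and 15 without shControl replicate 3, and between 16 and 24 without any other library.

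**Figure D1:**
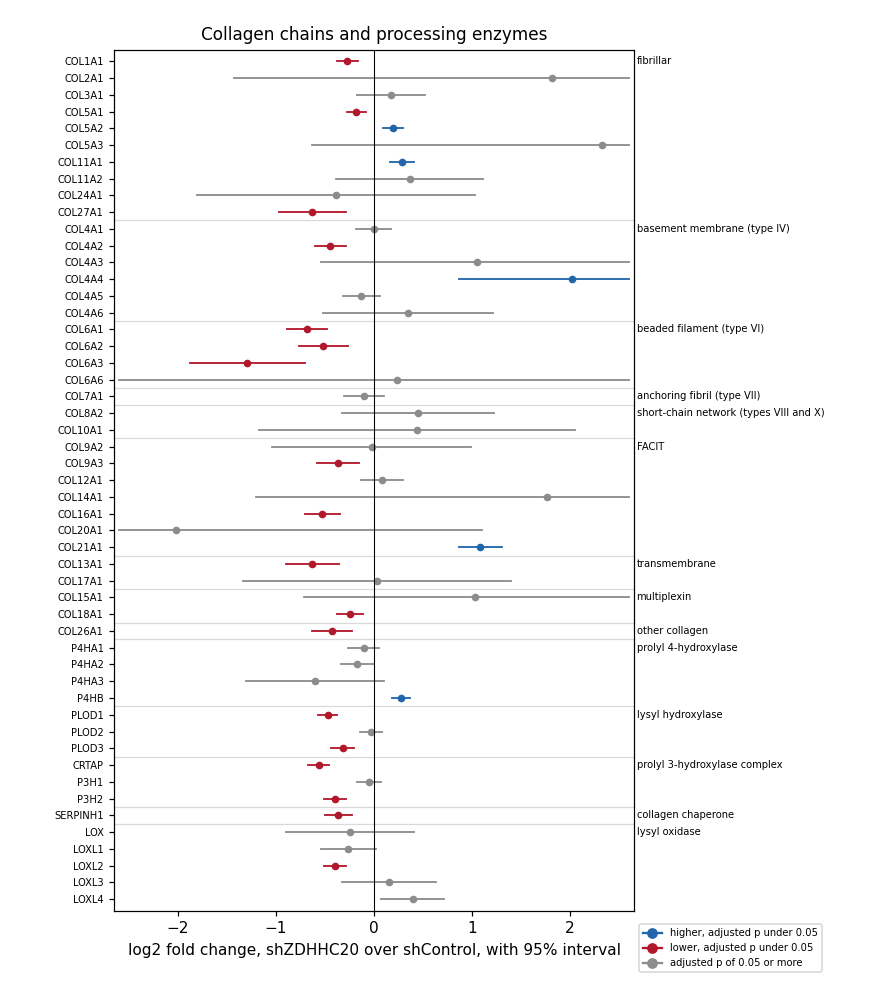
Log2 fold change of shZDHHC20 over shControl on the x axis for each of the 51 members tested, grouped by role, with points for the estimate and lines for the 95% interval. Lines end at the edge of the plot at 2.6, blue and red points are the 5 genes higher and 18 lower at an adjusted p under 0.05, and the long grey lines belong to chains with means under 100.

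Levels can be compared between genes only per length, here per kb of exons, with the exons of all annotated transcripts of a gene joined. COL18A1, the basement membrane collagen that holds the endostatin fragment, was the highest chain at 3559 normalized counts per kb in shControl, followed by COL5A2 at 1642, COL5A1 at 696 and COL1A1 at 400.3. Of the chain values per kb these took 48.7%, 22.5%, 9.52% and 5.48%. Type IV and VI chains were lower, with COL6A1 at 71.1, COL4A2 at 46.5 and COL4A1 at 25.9 per kb. The exon lengths used for them were 5343, 19293 and 14738 bases, and their undivided shControl means were 380, 897 and 382. The order of these chains therefore depends on the length used. All chains together made up 0.353%, 0.342% and 0.350% of the summed values in shControl and 0.317%, 0.363% and 0.304% in shZDHHC20. shZDHHC20 replicate 2 lay above all controls and the other silenced libraries below them, so the groups overlapped (exact permutation test, two-sided, p = 0.4, where 3 against 3 libraries cannot go below 0.1). Without that library the difference went from -0.0201 to -0.0377 percentage points. COL18A1 alone made up 48.4% ± 0.144 of the chain values in shControl and 44.9% ± 1.63 in shZDHHC20, and COL5A2 19.5% ± 0.0883 and 24.5% ± 0.549 (SD, n = 3). With COL18A1 left out, the chains took 0.180% ± 0.00249 in shControl and 0.181% ± 0.0117 in shZDHHC20 (exact permutation test, p = 1). The 16 enzymes took 0.213% ± 0.00178 and 0.201% ± 0.00169, and each shZDHHC20 library lay below each control (exact permutation test, p = 0.1, the smallest that 3 against 3 allow).

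**Figure D2:**
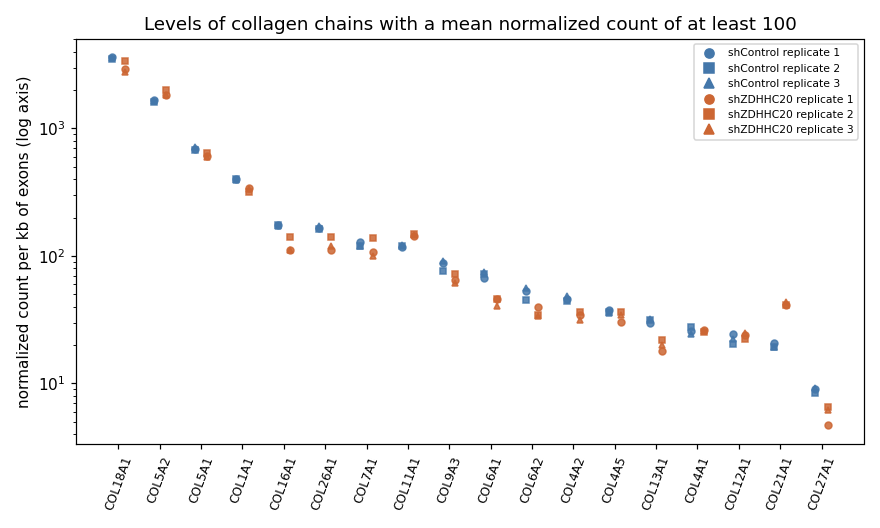
Normalized count per kb of exons on a log axis for the 18 chains with a mean of at least 100, ordered by their shControl mean, with 1 point per library, blue for shControl and orange for shZDHHC20. COL18A1 and COL5A2 stand highest in both groups, and COL21A1 shows the widest gap upward.

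Of the 10 fibrillar chains tested, 3 fell and 2 rose. COL1A1, which encodes the main chain of type I collagen, was at 3953, 3958 and 3882 normalized counts in shControl and 3376, 3113 and 3291 in shZDHHC20. Every silenced library was below every control, and the difference was a log2 fold change of -0.27 (95% interval -0.38 to -0.17, adjusted p = 0.00288). The chains of type V collagen, which starts fibrils and limits their width, moved apart. COL5A1 was at 7769, 7613 and 7988 in shControl and 6748, 7178 and 6712 in shZDHHC20, a log2 fold change of -0.18 (95% interval -0.28 to -0.081, adjusted p = 0.0213). COL5A2 was at 12429.8, 12033 and 12248 in shControl and 13646, 14877 and 13524 in shZDHHC20, a log2 fold change of 0.19 (95% interval 0.095 to 0.29, adjusted p = 0.0153). The groups did not overlap for either chain, with COL5A1 below and COL5A2 above the controls. COL11A1, a chain of the related minor fibrillar type XI, was at 1076, 1082 and 1116 in shControl and 1309, 1358 and 1325 in shZDHHC20, a log2 fold change of 0.29 (95% interval 0.16 to 0.41, adjusted p = 0.00536). COL27A1, a fibrillar collagen known from cartilage, was at 127, 118 and 128 in shControl and 65.7, 91.1 and 86.6 in shZDHHC20, a log2 fold change of -0.63 (95% interval -0.97 to -0.28, adjusted p = 0.0219). COL11A1 lay higher and COL27A1 lower in every silenced library. The calls of COL5A1, COL5A2 and COL27A1 were lost without 1 library: that of COL5A1 without any library but shZDHHC20 replicate 2 (adjusted p up to 0.149, without shControl replicate 3), and those of COL5A2 and COL27A1 without any control or shZDHHC20 replicate 1 (up to 0.109 without shControl replicate 2, and up to 0.117 without shControl replicate 3). COL5A1 also missed the threshold after quantile normalization (log2 fold change -0.12, adjusted p = 0.114). COL5A1 and COL5A2 both overlap an antisense gene, and whether strand was used in counting is not given in the sources used here.

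Among the 6 basement membrane chains of type IV, COL4A2 fell and COL4A4 rose. COL4A2 forms the common type IV network with COL4A1, its neighbour across the shared promoter above. It was at 892, 861 and 937 in shControl and 665, 704 and 610.1 in shZDHHC20, a log2 fold change of -0.44 (95% interval -0.60 to -0.29, adjusted p = 0.00156). COL4A1 was at 377, 409 and 359 in shControl and 387, 373 and 381 in shZDHHC20, a log2 fold change of -0.0036 (95% interval -0.18 to 0.18, adjusted p = 0.987). All silenced libraries lay below the controls for COL4A2, while the groups overlapped for COL4A1. The log2 ratio of COL4A1 to COL4A2 was -1.23 ± 0.154 in shControl and -0.79 ± 0.120 in shZDHHC20 (SD, n = 3), a difference of 0.44 with no overlap (exact permutation test, p = 0.1, adjusted p = 0.186 over 13 pairs). COL4A4, known from the basement membrane of the kidney glomerulus, was low, at 3.03, 4.02 and 6.01 in shControl and 16.96, 11.3 and 26.9 in shZDHHC20. The groups were apart, with a log2 fold change of 2.02 (95% interval 0.87 to 3.17, adjusted p = 0.0261). Its partner across the other shared promoter, COL4A3, was at 7.07, 2.01 and 2.002 in shControl and 8.48, 4.696 and 6.74 in shZDHHC20, which overlapped (1.05, 95% interval -0.54 to 2.64). The call of COL4A4 was lost without any library but shZDHHC20 replicate 2 (adjusted p up to 0.140, without shZDHHC20 replicate 3). COL4A5 was at 444, 434 and 426 in shControl and 357, 431 and 405 in shZDHHC20, a log2 fold change of -0.13 (95% interval -0.32 to 0.059, adjusted p = 0.412), which was -0.055 without shZDHHC20 replicate 1. COL4A6 had a log2 fold change of 0.35 (95% interval -0.52 to 1.21, adjusted p = 0.6604). COL4A1 and COL4A2 overlap on opposite strands, and COL4A2 also overlaps antisense genes.

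The type VI chains, which assemble into beaded filaments around cells, fell together: 3 of the 4 tested. COL6A1 was at 356, 386 and 398 in shControl and 247, 246 and 217 in shZDHHC20, a log2 fold change of -0.68 (95% interval -0.89 to -0.48, adjusted p = 4.69e-04). COL6A2 was at 285, 245 and 303 in shControl and 213, 186 and 183 in shZDHHC20, a log2 fold change of -0.52 (95% interval -0.76 to -0.27, adjusted p = 0.01001). COL6A3 was at 61.6, 41.2 and 44.1 in shControl and 20.1, 16.9 and 22.1 in shZDHHC20, a log2 fold change of -1.29 (95% interval -1.88 to -0.71, adjusted p = 0.00741), and 40.3% of its control mean remained. For these 3 chains every silenced library was below every control. COL6A3 had 2.49 normalized counts per kb in shControl, against 71.1 of COL6A1 and 51.6 of COL6A2, although the chains assemble into one trimer. Part of this gap comes from the exon lengths used, 19633, 5343 and 5386 bases. Undivided, the shControl means were 49.0, 380 and 278. The log2 ratio of COL6A1 to COL6A3 was higher in shZDHHC20 by 0.61 with no overlap (exact permutation test, p = 0.1, adjusted p = 0.186), and by 0.39 without shControl replicate 1. That of COL6A1 to COL6A2 differed by -0.17, and the groups overlapped (exact permutation test, p = 0.3). COL6A6 was at 0, 7.03 and 2.002 in shControl and 1.06, 0.939 and 1.92 in shZDHHC20, too low to show a difference. The call of COL6A2 was lost without shControl replicate 1 (adjusted p = 0.0755) or replicate 3 (0.0881), and that of COL6A3 without shControl replicate 1 (0.0713). The fibroblast marker THY1, a surface protein, was at 25.3, 22.1 and 26.0 in shControl and 14.8, 9.39 and 17.3 in shZDHHC20 (adjusted p = 0.153). The other fibroblast markers did not fall with it. PDGFRB was at 109% and ACTA2 at 100.1% of the control mean, and LUM went from 0 to 3.18, 0.939 and 2.89. None of these markers passed, and the part of the summed markers given above in the type VI values was not tested.

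Of the 7 collagens tested that sit on fibrils with interrupted helices (FACIT), COL21A1 rose and COL9A3 and COL16A1 fell. COL21A1 was at 147, 138 and 136 in shControl and 290.4, 293 and 309 in shZDHHC20, or 212% of the control mean, a log2 fold change of 1.09 (95% interval 0.87 to 1.31, adjusted p = 2.36e-05). COL16A1 was at 1611, 1613 and 1591 in shControl and 1037, 1299 and 1027 in shZDHHC20, a log2 fold change of -0.53 (95% interval -0.70 to -0.35, adjusted p = 9.96e-04). COL9A3, a chain of the type IX collagen of cartilage, was at 423, 366 and 442 in shControl and 313, 347 and 294 in shZDHHC20, a log2 fold change of -0.37 (95% interval -0.58 to -0.15, adjusted p = 0.0298). None of these groups overlapped, and shZDHHC20 replicate 2 was the silenced library nearest to the controls for COL16A1 and COL9A3. COL12A1 was at 307, 253 and 279 in shControl and 299, 279 and 309 in shZDHHC20, a log2 fold change of 0.082 (95% interval -0.13 to 0.30, adjusted p = 0.681). The call of COL9A3 was lost without shControl replicate 1 or 3 or shZDHHC20 replicate 1 or 3 (adjusted p up to 0.174, without shControl replicate 3). COL16A1 overlaps an antisense gene, and COL9A3 overlaps TCFL5 on the opposite strand.

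COL18A1 was at 30813, 29734 and 30481 in shControl and 24847, 28933 and 23412 in shZDHHC20, a log2 fold change of -0.24 (95% interval -0.38 to -0.11, adjusted p = 0.0236). All silenced libraries were below the controls, with shZDHHC20 replicate 2 close to them. Without that library the log2 fold change was -0.33 (adjusted p = 6.34e-06), the call was lost without any other library (adjusted p up to 0.158, without shZDHHC20 replicate 1), and after quantile normalization the value was -0.13 (adjusted p = 0.474). The gene overlaps antisense genes and SLC19A1 on the opposite strand. COL13A1, a transmembrane collagen of cell adhesion sites, was at 175, 184 and 188 in shControl and 106, 129.6 and 118 in shZDHHC20, a log2 fold change of -0.63 (95% interval -0.90 to -0.36, adjusted p = 0.00525). COL26A1 was at 522, 511 and 544 in shControl and 349.8, 448 and 378 in shZDHHC20, a log2 fold change of -0.43 (95% interval -0.64 to -0.23, adjusted p = 0.009896). Both were below the controls in all silenced libraries, and the call of COL26A1 was lost without any control or shZDHHC20 replicate 1 (adjusted p up to 0.0862, without shControl replicate 3). COL7A1, whose product anchors the basement membrane to the tissue below, was at 1419, 1331 and 1314 in shControl and 1189, 1525 and 1108 in shZDHHC20. There shZDHHC20 replicate 2 was above every control and the others below, with a log2 fold change of -0.10 (95% interval -0.31 to 0.11, adjusted p = 0.578). Without that library the log2 fold change of COL7A1 was -0.24 and passed the threshold (adjusted p = 0.00796).

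The other 15 chains that did not pass had means of 2.16 to 81.3 normalized counts, so that only wide differences could be seen. They were COL2A1, COL3A1, COL5A3, COL11A2, COL24A1, COL4A3, COL4A6, COL6A6, COL8A2, COL10A1, COL9A2, COL14A1, COL20A1, COL17A1 and COL15A1, with log2 fold changes from -2.02 for COL20A1 to 2.33 for COL5A3. Each of these extremes rests on 1 library at 0, where the pseudocount of 0.1 sets the value, and the group means of shZDHHC20 were 39.3% and 274% of those of shControl. COL3A1, the main partner of type I collagen in soft tissue fibrils, was the highest of them, at 67.7, 79.3 and 82.1 in shControl and 91.2, 78.9 and 88.5 in shZDHHC20, and its groups overlapped (0.18, 95% interval -0.17 to 0.53).

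**Figure D3:**
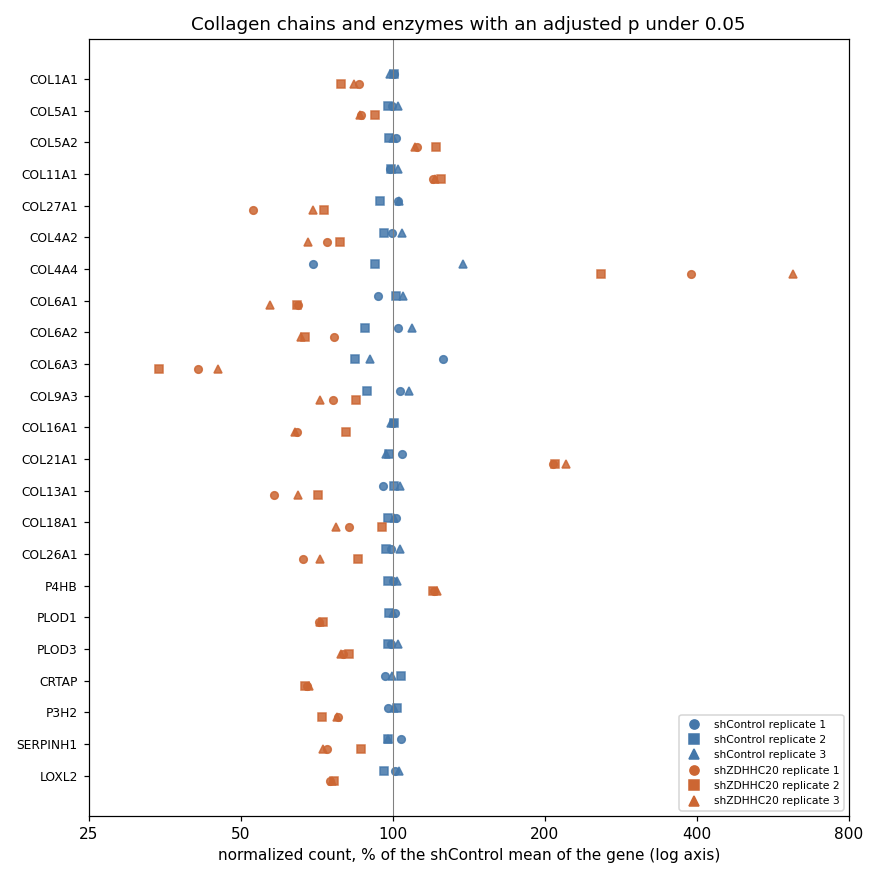
Normalized count of each library as a percentage of the shControl mean of its gene, on a log axis, for the 23 members with an adjusted p under 0.05, blue for shControl and orange for shZDHHC20, with a shape for each replicate. COL21A1 lies near 212% and COL6A3 near 40.3% of the control mean, and the squares of shZDHHC20 replicate 2 lie nearest to the controls for COL16A1, COL18A1, COL26A1 and SERPINH1.

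Prolyl 4-hydroxylases, which hydroxylate proline so that the helix is stable, consist of catalytic subunits and P4HB, which is also a protein disulfide isomerase. P4HB was at 8599, 8400.4 and 8775 in shControl and 10360.1, 10335 and 10504 in shZDHHC20, a log2 fold change of 0.28 (95% interval 0.19 to 0.36, adjusted p = 7.64e-04). Every silenced library was above every control. The catalytic subunit P4HA1 was at 1498, 1524 and 1374 in shControl and 1469, 1226 and 1404 in shZDHHC20, a log2 fold change of -0.10 (95% interval -0.26 to 0.055, adjusted p = 0.439), with groups that overlapped. Without shZDHHC20 replicate 1 the value was -0.16, and without shZDHHC20 replicate 2 it was -0.027. P4HA2 was at 463, 479 and 482 in shControl and 408, 445 and 412 in shZDHHC20, a log2 fold change of -0.17 (95% interval -0.34 to -0.0034, adjusted p = 0.19998), and P4HA3 had a log2 fold change of -0.60 (95% interval -1.30 to 0.11, adjusted p = 0.295). The groups were apart for P4HA2 but the difference did not pass. The log2 ratio of P4HA1 to P4HB was -2.55 ± 0.110 in shControl and -2.93 ± 0.131 in shZDHHC20, a difference of -0.38 (exact permutation test, p = 0.1, adjusted p = 0.186). P4HB overlaps an antisense gene.

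Lysyl hydroxylases prepare lysine for cross-links and sugar attachment, and 2 of the 3 fell. PLOD1, which acts on the helix, was at 3959, 3858 and 3929 in shControl and 2795, 2848 and 2813 in shZDHHC20, a log2 fold change of -0.47 (95% interval -0.57 to -0.37, adjusted p = 2.70e-05). PLOD3, which also adds sugars, was at 1547, 1527 and 1598 in shControl and 1240.2, 1273 and 1228 in shZDHHC20, a log2 fold change of -0.32 (95% interval -0.44 to -0.20, adjusted p = 0.00214). PLOD2, which acts on the ends of the chains, was at 8013, 7966 and 8401 in shControl and 8101, 7390.1 and 8388 in shZDHHC20, a log2 fold change of -0.032 (95% interval -0.14 to 0.081, adjusted p = 0.773). PLOD1 and PLOD3 were below the controls in all silenced libraries, and PLOD2 overlapped. The sign of PLOD2 turned after quantile normalization (0.031) and without shZDHHC20 replicate 2 (0.021). The log2 ratio of PLOD1 to PLOD2 differed by -0.44 and that of PLOD1 to PLOD3 by -0.15, both without overlap (exact permutation test, p = 0.1, adjusted p = 0.186 for each). PLOD3 overlaps ZNHIT1 on the opposite strand.

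CRTAP and P3H1 form the complex that 3-hydroxylates proline, and CRTAP passed the test while P3H1 did not. CRTAP was at 3559.9, 3839 and 3681 in shControl and 2505, 2472 and 2523 in shZDHHC20, a log2 fold change of -0.56 (95% interval -0.67 to -0.46, adjusted p = 1.41e-05). P3H1 was at 1088, 1082 and 1070.3 in shControl and 1019.7, 1039.6 and 1067 in shZDHHC20, a log2 fold change of -0.052 (95% interval -0.18 to 0.074, adjusted p = 0.6504). P3H1 values were also below the controls in all silenced libraries, by little, and the log2 ratio of CRTAP to P3H1 was 1.77 ± 0.0593 in shControl and 1.26 ± 0.0298 in shZDHHC20, a difference of -0.51 (exact permutation test, p = 0.1, adjusted p = 0.186). P3H2, which acts mainly on basement membrane collagen, was at 2777, 2894 and 2857 in shControl and 2216, 2058 and 2202 in shZDHHC20, a log2 fold change of -0.40 (95% interval -0.51 to -0.29, adjusted p = 2.85e-04). SERPINH1, the chaperone of procollagen in the endoplasmic reticulum, was at 4174, 3933 and 3937 in shControl and 2974, 3471 and 2926 in shZDHHC20, a log2 fold change of -0.37 (95% interval -0.50 to -0.23, adjusted p = 0.00241). Both were below the controls in every silenced library. CRTAP and P3H2 overlap antisense genes.

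Of the 5 lysyl oxidases, which start the cross-links between collagen molecules, LOXL2 fell. It was at 2244, 2135 and 2283 in shControl and 1673, 1701 and 1683 in shZDHHC20, a log2 fold change of -0.40 (95% interval -0.51 to -0.28, adjusted p = 3.07e-04), with no overlap. The others did not pass: LOX had a log2 fold change of -0.25 (95% interval -0.90 to 0.41, adjusted p = 0.684), and LOXL1 a log2 fold change of -0.26 (95% interval -0.55 to 0.017, adjusted p = 0.2398). LOXL3 had a log2 fold change of 0.15 (95% interval -0.33 to 0.63, adjusted p = 0.739). LOXL4 was at 113, 112 and 87.1 in shControl and 131, 150.3 and 128 in shZDHHC20, apart and above the controls, with a log2 fold change of 0.40 (95% interval 0.075 to 0.72, adjusted p = 0.115). LOXL2 overlaps ENTPD4 on the same strand.

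Within a library, scaling cancels from the ratio of a pair of genes. Of 16 pairs listed, 13 had both genes tested, and the groups did not overlap in 7. The share without overlap among pairs of other genes was not computed. For single genes it was 28.6% of all genes and 42.6% of those with a mean of at least 100. The ratios restate the fold changes of their genes. The smallest adjusted p was 0.186, since 3 against 3 libraries cannot go below an exact p of 0.1. The ratio of COL5A1 to COL5A2 went from -0.65 ± 0.0315 in shControl to -1.03 ± 0.0222 in shZDHHC20 (SD, n = 3). The ratios of COL4A5 to COL4A6, COL9A2 to COL9A3, COL11A1 to COL11A2, COL4A3 to COL4A4 and P4HA1 to P4HA2 overlapped, with differences of -0.48, 0.34, -0.079, -0.97 and 0.068 on the log2 scale. These moved with single libraries. COL4A3 to COL4A4 ranged from -1.52, with the groups apart, without shControl replicate 3 to -0.16 without shControl replicate 1. COL4A5 to COL4A6 ranged from -0.74, with the groups apart, without shZDHHC20 replicate 3 to -0.25 without shControl replicate 2. COL9A2 to COL9A3 ranged from 0.0037 without shZDHHC20 replicate 1 to 0.80, with the groups apart, without shZDHHC20 replicate 2. COL11A1 to COL11A2 ranged from -0.26 without shZDHHC20 replicate 3 to 0.19 without shControl replicate 1. P4HA1 to P4HA2 ranged from -0.00998 without shZDHHC20 replicate 1 to 0.18, with the groups apart, without shZDHHC20 replicate 2.

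Other genes that serve collagen were read from a list of 59, drawn up when earlier results of these data were known. Of these, 53 were tested and 16 were called, 13 lower and 3 higher. That was 30.2%, against 11.5% of all genes and 21.7% of those whose mean reached 100. The list also holds genes below that mean, so neither background matches it fully. Of 22 genes of folding, glycosylation and export, 7 fell and 1 rose, so that 36.4% were called. FKBP10, a prolyl isomerase of the endoplasmic reticulum, went from 4494 ± 83.4 to 3749 ± 341 normalized counts (-0.27, adjusted p = 0.0122), and the related FKBP14 from 739 ± 29.6 to 579 ± 22.1 (-0.35, adjusted p = 0.00563). P3H4, a partner of the lysyl hydroxylase PLOD1, fell by 0.45 on the log2 scale. The galactosyltransferases COLGALT1 and COLGALT2, which add sugar to hydroxylysine, fell by 0.33 and 0.38, the retrieval receptor KDELR2 by 0.25, and CREB3L2, a transcription factor of secretory pathway genes, by 0.33. MIA2, which takes part in the export of large cargo, rose from 565 ± 22.3 to 692 ± 16.95 (0.29). The general chaperones of the endoplasmic reticulum did not pass: HSPA5 had a log2 fold change of 0.14 (95% interval 0.048 to 0.23, adjusted p = 0.05002), CANX a log2 fold change of 0.065 (95% interval -0.070 to 0.20, adjusted p = 0.584) and HSP90B1 a log2 fold change of 0.0078 (95% interval -0.13 to 0.14, adjusted p = 0.963). Every silenced library was above every control for HSPA5, while the groups overlapped for CANX and HSP90B1. All 3 chaperones passed, as higher, without shZDHHC20 replicate 2 (adjusted p = 0.000474, 0.000552 and 0.0298).

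Of 9 genes of procollagen cleavage 1 was called, or 11.1% against 11.5% of all genes. This was the N-propeptidase ADAMTS14, low at 14.1, 17.1 and 12.01 in shControl and 2.12, 2.82 and 4.81 in shZDHHC20 (-2.18, adjusted p = 0.0247). The call of ADAMTS14 was lost without any control or shZDHHC20 replicate 1. In 5 of the 9, ADAMTS14 among them, every silenced library lay below every control, though the others did not pass. That was 55.6%, against groups without overlap for 28.6% of all genes and 42.6% of those with a mean of at least 100. The share called was 28.6% of genes of breakdown and uptake, 37.5% of receptors and 28.6% of proteins that bind fibrils. It was 11.5% of all genes and 21.7% of those with a mean of at least 100. Of 7 genes of breakdown and uptake, MMP2 and MRC2 fell. MMP2, a gelatinase, was at 3043, 2907 and 2931 in shControl and 2028, 2168 and 2043 in shZDHHC20, a log2 fold change of -0.51 (95% interval -0.62 to -0.40, adjusted p = 3.84e-05). MRC2, a receptor that takes up collagen, had a log2 fold change of -0.30 (95% interval -0.43 to -0.17, adjusted p = 0.00537). Of 8 collagen receptors, the integrin subunits ITGA1 and ITGA2 fell by 1.10 and 0.30 on the log2 scale, while ITGB1, their common partner, rose from 27168 ± 152 to 31429.6 ± 2297 (0.21, adjusted p = 0.0171). ITGA1 was low, at 34.4, 29.1 and 31.04 in shControl and 13.8, 11.3 and 20.2 in shZDHHC20, and its call was lost without any library but shZDHHC20 replicate 3. ITGA1 overlaps PELO, and KDELR2 above overlaps DAGLB, each on the same strand. Of 7 proteins that bind fibrils, SPARC fell, from 523 ± 1.47 to 394 ± 15.3 (-0.41, adjusted p = 0.00344), and THBS1 rose, from 900.2 ± 40.4 to 1080.0 ± 86.8 (0.26, adjusted p = 0.03303). Of the 16 genes called, MMP2, COLGALT1, ITGA2 and SPARC also passed with any 1 library left out. The number of these genes called was 6, 8 and 5 without shControl replicate 1, 2 and 3, and 8, 24 and 13 without shZDHHC20 replicate 1, 2 and 3.

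**Figure D4:**
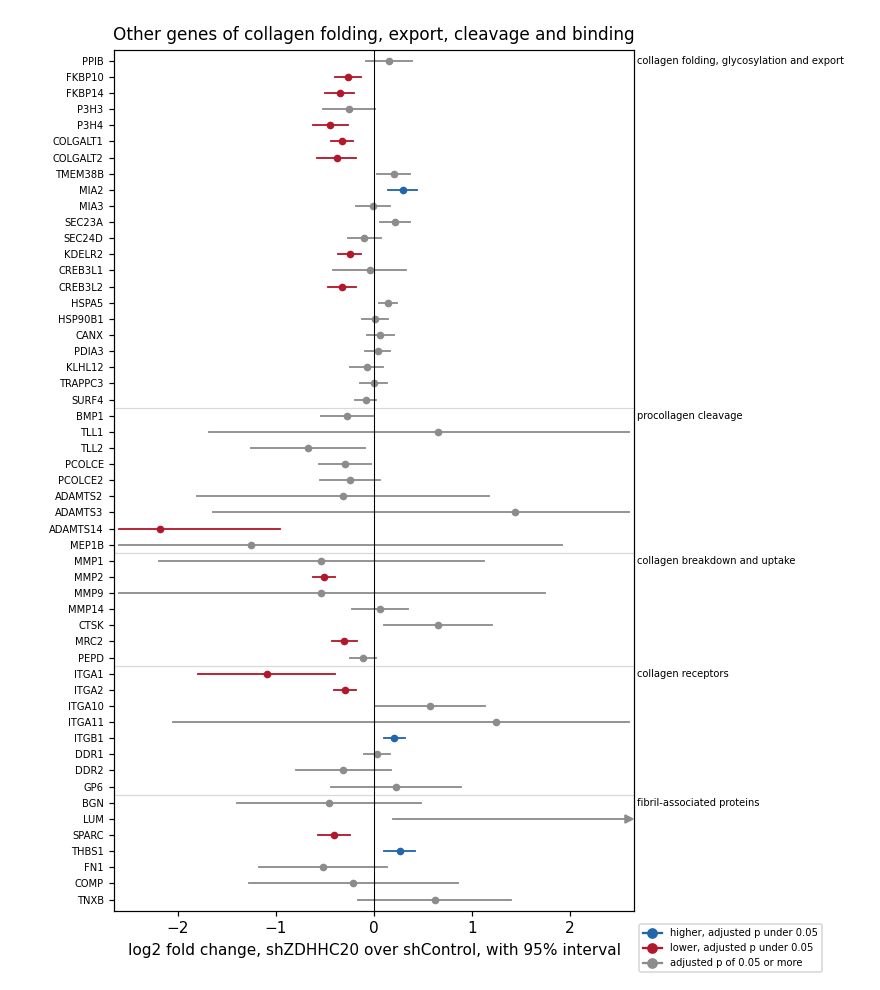
Log2 fold change of shZDHHC20 over shControl with its 95% interval on the x axis for the 53 genes tested of collagen folding, export, cleavage, breakdown, receptors and binding, grouped by role, with lines and points that end at the edge of the plot at 2.6. The 13 red genes are lower and the 3 blue ones, MIA2, ITGB1 and THBS1, higher at an adjusted p under 0.05.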

How the data were processed

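RNA-seq libraries of PANC-1 cells (3 shControl, 3 shZDHHC20) were analysed from 1 table in which the authors deposited a normalized signal per gene and library, named as FPKM. All values were whole multiples of the smallest value above 0 of their library within a tolerance of 0.001, with no division by gene length, so they are called normalized counts here. The labels name the build hg19; the aligner, counter and normalization are not given in the sources used here. Columns headed siZDHHC20 and NC were matched to shZDHHC20 and shControl by replicate number.

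Gene names were matched for 27175 of 27394 identifiers. Exon lengths, overlaps and GC content came from GENCODE 29 on GRCh38, and promoters from RefSeq GRCh38.p14. An exon length counted each base in an exon of any transcript of the gene once. log2(value + 0.1) was fitted with limma 3.58.1 in R 4.3.3, with eBayes and a mean-variance trend, for genes with a mean of at least 1; fold changes are on that scale, on which the pseudocount understates the change of low genes and, where a library is at 0, can overstate it. Two-sided p-values were corrected across 22189 genes (Benjamini-Hochberg). Shares and ratios were compared by exact permutation tests in Python 3.11.15 with scipy 1.17.1. The fit was also run on simulated counts with the same spread in every library. These held no library that stood apart like shZDHHC20 replicate 2, so that run does not cover this feature of the data. Intervals cover the spread between libraries only. Named genes were all members with an adjusted p under 0.05, the 6 highest members that did not pass, the accessory genes that passed and the 3 highest that did not. Members and lists were chosen with earlier results of these data known. The alternatives are named in the closing section. The background of genes averaging 100 or more and the sum without COL18A1 were added after the data were seen.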

Additional observations from a re-analysis of the deposited data

How the results depend on the processing

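Fits were repeated with a pseudocount of 1 or 0.01, a minimum mean of 5 or none, scaling by median ratios or by quantiles, without the mean-variance trend, with a replicate block, after removal of a GC trend, and without each library in turn. Of the 23 members called, none changed sign in any of these 15 fits, and COL6A1, COL21A1, PLOD1 and CRTAP passed in all of them. Without the mean-variance trend 4 members, 351 of all genes and 2 accessory genes were called. Leaving out 1 library gave 14 to 24 members, 1036 to 4268 of all genes and 5 to 24 accessory genes, with the highest count each time without shZDHHC20 replicate 2, where 23 of the 24 members were those called with all libraries. The difference in the summed share of chains was -0.0377 to -0.00804 percentage points without 1 library. Among genes that did not pass, PLOD2 turned to 0.031 after quantile normalization and to 0.021 without shZDHHC20 replicate 2 (range without 1 library -0.070 to 0.021), and HSP90B1 to -0.026 with the GC trend removed and to -0.017 and -0.050 without shZDHHC20 replicates 1 and 3 (range -0.050 to 0.091). The cause was not tested. Same-numbered libraries did not deviate together (correlations of -0.0948, -0.156 and -0.0771 over 10908 genes), and unlike numbers gave -0.0918 to 0.154. With 3 libraries per group, whose deviations sum to 0, these values cannot show whether the numbers pair the samples. With the replicate block 21 members, 1942 of all genes and 15 accessory genes were called, and COL5A1 and COL9A3 were lost (adjusted p = 0.0657 and 0.0584). Count models on recovered reads were not run. Chains with means under 100 limit what can be seen at this depth.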

Other observations

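Among the 31 collagen chains and enzymes with a mean of at least 100, shZDHHC20 replicate 2 was farther from the mean of shZDHHC20 replicates 1 and 3 than these were from each other in 24, above both in 19 and below both in 8. On the log2 scale it was 0.41 above that mean for COL7A1, 0.33 for COL16A1, 0.30 for COL26A1, 0.26 for COL18A1 and 0.23 for SERPINH1. For P4HA1 it was at -0.23 and for PLOD2 at -0.16. For CRTAP, PLOD1, P4HB and LOXL2 it was at -0.024, 0.023, -0.013 and 0.020.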
